A study of Mus musculus with 24 samples.

Results

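The 10 genes described here encode the proteins that shape and enlarge the phagophore, the cup-like membrane that closes into an autophagosome. They are the 4 genes of the WIPI family (*Wipi1*, *Wipi2*, *Wdr45* and *Wdr45b*), the lipid transfer genes *Atg2a* and *Atg2b*, the lipid scramblase gene *Atg9a*, and the genes of the ATG12–ATG5-ATG16L1 conjugate (*Atg5*, *Atg12* and *Atg16l1*). The members were taken by gene name from a table of 55487 mouse genes. Each of the 10 names matched 1 gene, and all 10 were among the 15401 genes with enough counts to be tested.

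Autophagy wraps cytoplasm in a new double membrane and delivers it to lysosomes. WIPI proteins are propeller-shaped proteins that bind phosphatidylinositol 3-phosphate on the phagophore. WIPI2 there recruits ATG16L1, while WDR45B and WDR45 (also called WIPI3 and WIPI4) bind ATG2 proteins, which carry lipids from the endoplasmic reticulum into the growing membrane, and ATG9A moves those lipids between its leaflets. ATG12 is attached covalently to ATG5, and the conjugate with ATG16L1 directs the lipidation of LC3 and GABARAP proteins. TFEB and TFE3 are basic helix-loop-helix transcription factors of lysosomal and autophagy genes, and MTORC1 holds them in the cytoplasm by phosphorylation.

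TFEB and TFE3 bind E-box motifs with the core CACGTG, so the promoters of members on which the results turn are shown first. RefSeq promoters (GRCm38.p6) ran from 250 bases before to 50 bases after the start site. They were matched for 7 of the 10 members, all but *Wdr45b*, *Atg12* and *Atg16l1*. CACGTG, which is its own reverse complement, was in 1 of those 7, *Atg5*, and in 7.15% of 32851 promoters. The longer forms TCACGTGA and TCATGTGA were searched on both strands; the first also contains CACGTG. They were in 0 of the 7 and in 0.974% and 0.986% of all promoters. The 80 bases ending just before each start site are given 5′ to 3′ on the strand of the gene, with CACGTG in capitals. They lie at chr11:109611390-109611469 (minus strand) for *Wipi1*, chrX:7722847-7722926 (plus) for *Wdr45*, chr12:105685242-105685321 (minus) for *Atg2b* and chr10:44268259-44268338 (plus) for *Atg5*.
*Wipi1*: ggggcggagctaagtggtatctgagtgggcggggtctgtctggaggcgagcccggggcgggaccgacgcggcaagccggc
*Wdr45*: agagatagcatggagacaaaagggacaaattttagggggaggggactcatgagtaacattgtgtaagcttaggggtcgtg
*Atg2b*: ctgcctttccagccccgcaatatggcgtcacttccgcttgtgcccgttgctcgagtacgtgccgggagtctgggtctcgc
*Atg5*: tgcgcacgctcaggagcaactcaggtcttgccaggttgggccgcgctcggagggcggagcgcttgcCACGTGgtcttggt
The RefSeq start sites of *Wipi1* and *Wdr45* lie inside the annotated genes, downstream of their first bases. These are at chr11:109611967 for *Wipi1* and chrX:7714333 for *Wdr45*, so the start site of *Wdr45* lies much further inside its gene. Neither window covers the first bases of its gene. The motif of *Atg5* began 14 bases before the start site. The *Wipi1* and *Atg2b* windows were GC-rich (69.0% and 67.3% G or C over 300 bases), whereas that of *Wdr45* was 48.0%, against a median of 52.7% over all promoters. A match or its absence describes these letters and is not a measure of binding.

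Wild-type (WT) mouse embryonic fibroblasts (MEFs) and MEFs lacking *Tfeb* and *Tfe3* (*tfeb tfe3* DKO) were treated with DMSO, torin1 or MK-8722. Torin1 is an ATP-competitive inhibitor of MTOR, and MK-8722 is an allosteric activator of AMPK. The study's legends give 0.1% DMSO, 100 nM torin1 and 10 µM MK-8722 for these cells, and the treatment time before sequencing was not given in the sources used here. Each of the 6 groups held 4 libraries of polyadenylated RNA, 24 in all. The 4 libraries of a group came from 4 passages, 7, 8, 9 and 11 in WT and 8, 9, 10 and 11 in DKO MEFs. The WT and the DKO cells each stand for the line used, so p-values measure the spread between cultures of a line, and genotype cannot be told apart from other differences between the lines.

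The libraries held 24668921 to 33332562 counts. Levels are given as CPM (counts scaled by TMM to a common library size). *Tfeb* was at 14.01 CPM or above in each WT library and at 2.65 or below in each DKO library, whereas *Tfe3* mRNA was at 120 ± 1.17 CPM in WT and 124 ± 2.11 CPM in DKO MEFs with DMSO (mean ± SD, n = 4), so the *Tfe3* counts do not check the genotype. The 10 fibroblast markers summed to 5581 to 8402 TPM (transcript abundance per length, on a common total) in each library, although *Postn* (at most 1.48 TPM) and *Thy1* (at most 6.14 TPM) were low. Endothelial (3) and adipocyte (2) markers summed to at most 0.417 and 0.194 TPM. The other lists rested largely on 1 marker each, *Krt8* among 4 epithelial (sum up to 12.2 TPM, highest in DKO with torin1), *Cd68* among 3 haematopoietic (2.22 to 22.03 TPM, highest in WT with MK-8722) and *Des* among 3 muscle markers (up to 5.90 TPM, highest in WT with torin1), with *Ptprc* at most 0.0885 TPM and *Adgre1* at 0. Their part in the results was not tested. RNA integrity numbers were 9.7 to 9.9 except for 1 DKO MK-8722 library at 7.9. In bulk RNA, fewer cells with a transcript and less of it per cell cannot be told apart.

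Torin1 split these genes. In WT MEFs it raised *Wdr45*, *Wipi1*, *Atg12* and *Atg2a* and lowered *Atg5*, *Atg9a*, *Wdr45b* and *Atg16l1*, and in DKO MEFs it moved the same 8 genes the same way and also lowered *Atg2b*. A gene was called changed in edgeR's quasi-likelihood test when it differed by 1.2-fold or more with a false discovery rate (FDR, Benjamini-Hochberg over all 15401 genes) below 0.05. By that rule 4 members rose and 4 fell in WT, where 26.6% of all genes rose and 20.5% fell, and 4 rose and 5 fell in DKO MEFs, where 23% of all genes rose and 20.2% fell. In all, 8 and 9 of the 10 were called, against 47.1% and 43.2% of all genes. Scaling by library size alone raised the share of rises among all genes called in WT from 56.5% to 68.2% and left these members' calls in place. The median log2 fold change of the members was -0.18 in WT and -0.20 in DKO MEFs, against 0.05 and 0.02 for all genes. The 4 differences between a torin1 library and the DMSO library of the same passage had the same sign for each of these 8 genes in both genotypes, and for *Atg2b* as well.

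**Figure D1:**
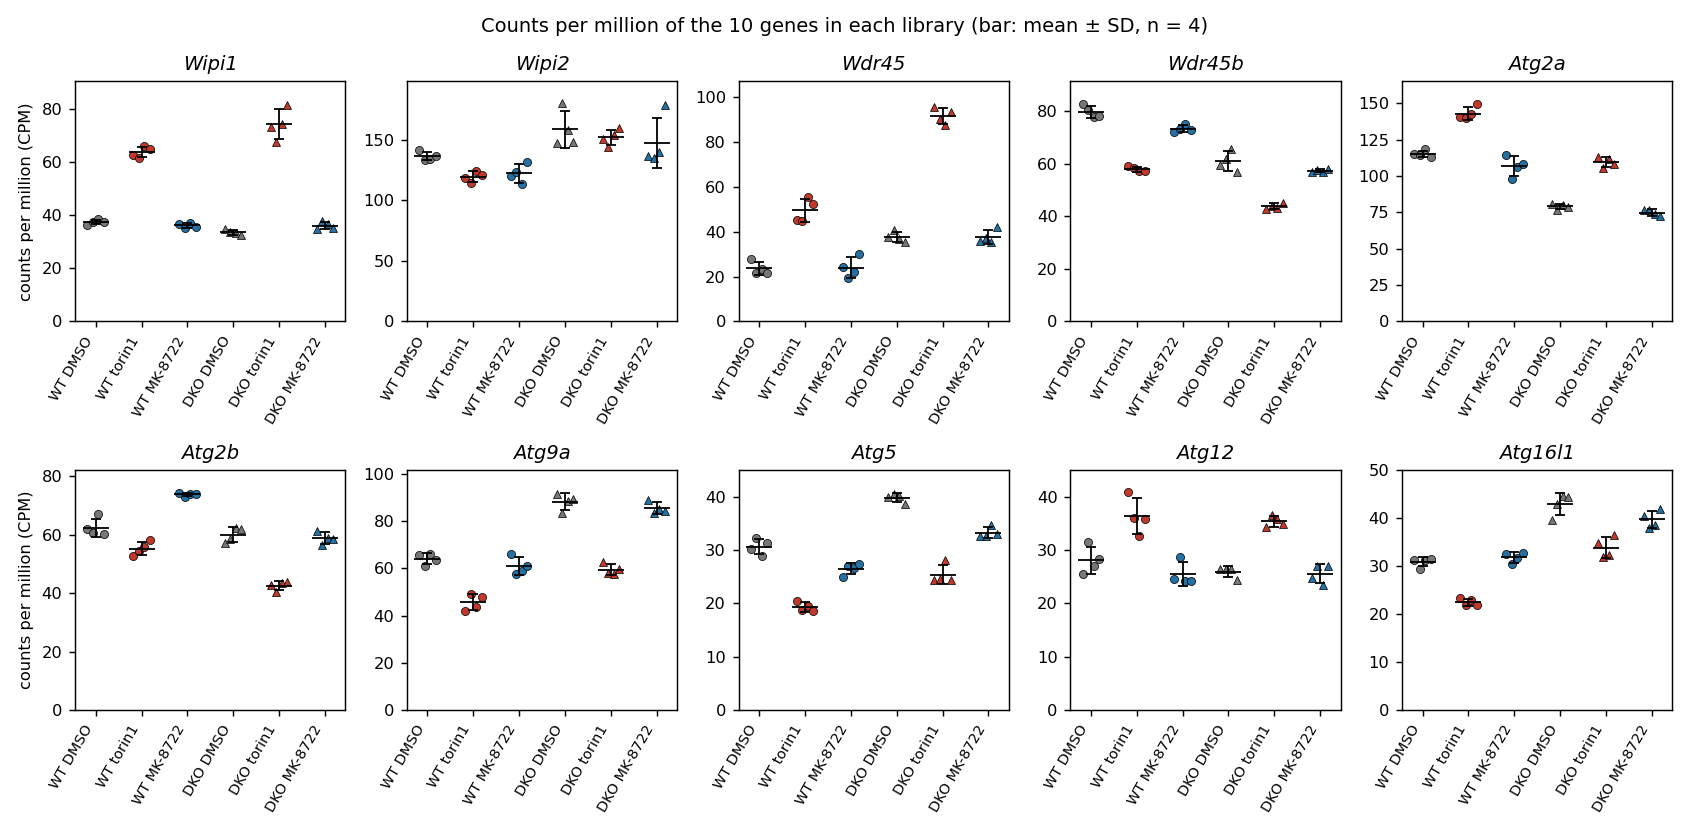
CPM (y axis, from 0) of each gene in the 6 groups (x axis). Each point is 1 library, circles for WT and triangles for DKO, and the bar and whiskers are the mean ± SD of 4 libraries. The torin1 points (red) of *Wipi1* and *Wdr45* lie above every other point of the same genotype, and those of *Atg5* and *Wdr45b* lie below.

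*Wdr45* had the largest change among the members. It encodes WIPI4, is mutated in a human neurodegeneration with brain iron accumulation, and lies at chrX:7714333-7728206 (plus strand, GRCm38). In WT MEFs it was at 27.9, 21.7, 23.4 and 21.7 CPM with DMSO and at 45.1, 44.99, 55.5 and 52.4 CPM with torin1. In DKO MEFs it was at 37.7, 40.9, 36.6 and 35.4 CPM with DMSO and at 95.5, 90.3, 87.5 and 93.5 CPM with torin1. The torin1 libraries did not overlap those with DMSO in either genotype. The log2 fold change was 1.06 ± 0.10 (SE, FDR 7.32e-09) in WT and 1.28 ± 0.10 (FDR 3.21e-10) in DKO MEFs, that is 2.09-fold and 2.43-fold. The locus limits these values. A second annotated protein-coding gene, *Gm45208*, overlaps it by 5962 bases on the same strand, and salmon divides reads between them by estimation.

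*Wipi1*, at chr11:109573331-109611967 (minus strand), encodes the WIPI protein long used as a marker of phagophore puncta. It was at 36.5, 37.7, 38.6 and 37.3 CPM with DMSO and at 62.9, 61.6, 66.1 and 65.1 CPM with torin1 in WT MEFs. In DKO MEFs it was at 35.0, 33.7, 33.4 and 32.7 CPM with DMSO and at 73.4, 67.9, 74.6 and 81.5 CPM with torin1. So the DKO started slightly below WT and ended above it, with no overlap between the genotypes in either condition. The rise was 0.77 ± 0.04 (log2 ± SE, FDR 1.26e-12, 1.70-fold) in WT and 1.14 ± 0.04 (FDR 4.90e-15, 2.21-fold) in DKO MEFs.

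The other WIPI genes did not share this rise. *Wdr45b* (chr11:121327224-121354445, minus strand), the close paralog of *Wdr45*, fell from 79.7 ± 2.27 to 57.9 ± 0.9753 CPM (SD, n = 4) in WT, and from 60.9 ± 3.77 to 43.8 ± 1.09 CPM in DKO MEFs. The log2 changes were -0.46 ± 0.04 (SE, FDR 1.79e-10) and -0.47 ± 0.04 (FDR 1.54e-10). *Wipi2* (chr5:142627698-142670588, plus strand), which couples the phagophore to ATG16L1, was not called in either genotype. It was at 133.6 to 141.4 CPM with DMSO and at 114.1 to 124.2 CPM with torin1 in WT MEFs, ranges that did not overlap, and its log2 change of -0.19 ± 0.07 (FDR 0.0286) was under the fold threshold. In DKO MEFs the ranges overlapped, and the log2 change was -0.06 ± 0.07 (FDR 0.510).

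The lipid transfer pair also diverged. *Atg2a* (chr19:6241668-6262335, plus strand) rose from 112.98 to 118.4 CPM with DMSO to 139.7 to 149.3 CPM with torin1 in WT MEFs, a log2 change of 0.31 ± 0.04 (FDR 3.84e-07), and by 0.47 ± 0.04 (FDR 6.82e-10) in DKO MEFs. *Atg2b* (chr12:105616136-105685211, minus strand) was at 61.8, 60.6, 67.0 and 60.2 CPM with DMSO and at 52.9, 54.3, 55.8 and 58.2 CPM with torin1 in WT MEFs. In DKO MEFs it was at 57.1, 58.5, 62.5 and 61.8 CPM with DMSO and at 42.7, 40.5, 43.5 and 43.95 CPM with torin1. All 8 torin1 libraries were below the DMSO libraries of their genotype. The log2 change was -0.17 ± 0.04 (FDR 7.42e-04, under the fold threshold) in WT and -0.49 ± 0.04 (FDR 6.96e-10) in DKO MEFs.

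*Atg9a* (chr1:75180860-75192196, minus strand) encodes the multispanning scramblase whose vesicles seed the phagophore. It fell from 64.0 ± 2.34 to 45.6 ± 3.42 CPM in WT, a log2 change of -0.49 ± 0.05 (FDR 2.04e-08). The fall in DKO MEFs was from 88.1 ± 3.48 to 59.5 ± 2.44 CPM, or -0.57 ± 0.05 (FDR 1.98e-09). An annotated non-coding gene, *Gm29253*, overlaps *Atg9a* by 4287 bases on the same strand, so the split of reads between them is uncertain.

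Within the conjugate, the 2 proteins that are joined covalently moved in opposite directions at the mRNA level. *Atg5* (chr10:44268358-44364291, plus strand), the acceptor of ATG12, was at 30.2, 32.2, 28.9 and 31.2 CPM with DMSO and at 20.5, 18.8, 19.6 and 18.5 CPM with torin1 in WT MEFs. In DKO MEFs it was at 39.8, 40.5, 40.1 and 38.7 CPM with DMSO and at 24.3, 24.6, 28.1 and 24.4 CPM with torin1. The groups did not overlap, and the log2 changes were -0.66 ± 0.05 (FDR 5.88e-11) and -0.65 ± 0.05 (FDR 8.48e-11). *Atg12* (chr18:46730144-46741580, minus strand), a ubiquitin-like modifier, rose from 28.1 ± 2.55 to 36.3 ± 3.38 CPM in WT and from 26.0 ± 1.01 to 35.4 ± 1.01 CPM in DKO MEFs, by 0.37 ± 0.07 (log2 ± SE, FDR 7.75e-05) and 0.45 ± 0.07 (FDR 1.07e-05). *Atg16l1* (chr1:87755870-87792428, plus strand), the subunit that places the conjugate on membranes, fell from 30.9 ± 0.931 to 22.5 ± 0.696 CPM in WT and from 43.0 ± 2.31 to 33.9 ± 2.12 CPM in DKO MEFs. Its log2 changes were -0.46 ± 0.05 (FDR 2.16e-08) and -0.34 ± 0.05 (FDR 1.48e-06).

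MK-8722 moved none of the 10 genes past the thresholds. No member was called by edgeR in WT MEFs, where 10.3% of all genes rose and 5.87% fell (16.1% together), nor in DKO MEFs, where 5.47% rose and 3.21% fell (8.69%). At an unadjusted p under 0.05 there were 5 members in WT and 4 in DKO MEFs, at FDR under 0.05 with no fold threshold there were 4 and 1, and a DESeq2 Wald test with both thresholds called 0 in each. The shares of all genes at the looser cut-offs were not computed, so these counts have no background beside them. The values nearest the thresholds were those of *Atg2b* and *Atg5*. *Atg2b* was at 74.4, 72.9, 74.1 and 73.8 CPM with MK-8722 in WT MEFs, above all 4 DMSO libraries, with a log2 change of 0.24 ± 0.04 (FDR 7.03e-05), and it was called (0.28) once replicate 3 of WT DMSO was left out. In DKO MEFs it was at 61.5, 56.6, 58.9 and 58.6 CPM, within the range of DMSO apart from 1 library, with a log2 change of -0.03 ± 0.04 (FDR 0.714). *Atg5* with MK-8722 was at 24.96, 26.9, 26.6 and 27.3 CPM in WT and at 32.5, 32.5, 34.7 and 33.0 CPM in DKO MEFs, below every DMSO library of the same genotype. Its log2 change was -0.21 ± 0.05 (FDR 0.00147) in WT and -0.26 ± 0.05 (FDR 4.36e-04) in DKO MEFs. The value in DKO MEFs passed the fold threshold without replicate 3 of DKO MK-8722 (-0.28), the library with the RNA integrity number of 7.9, or without replicate 4 of DKO DMSO (-0.27). The other 8 members lay between -0.16 and 0.04 in WT and between -0.11 and 0.10 in DKO MEFs. The MK-8722 and torin1 comparisons share their DMSO libraries, so their values are not independent.

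**Figure D2:**
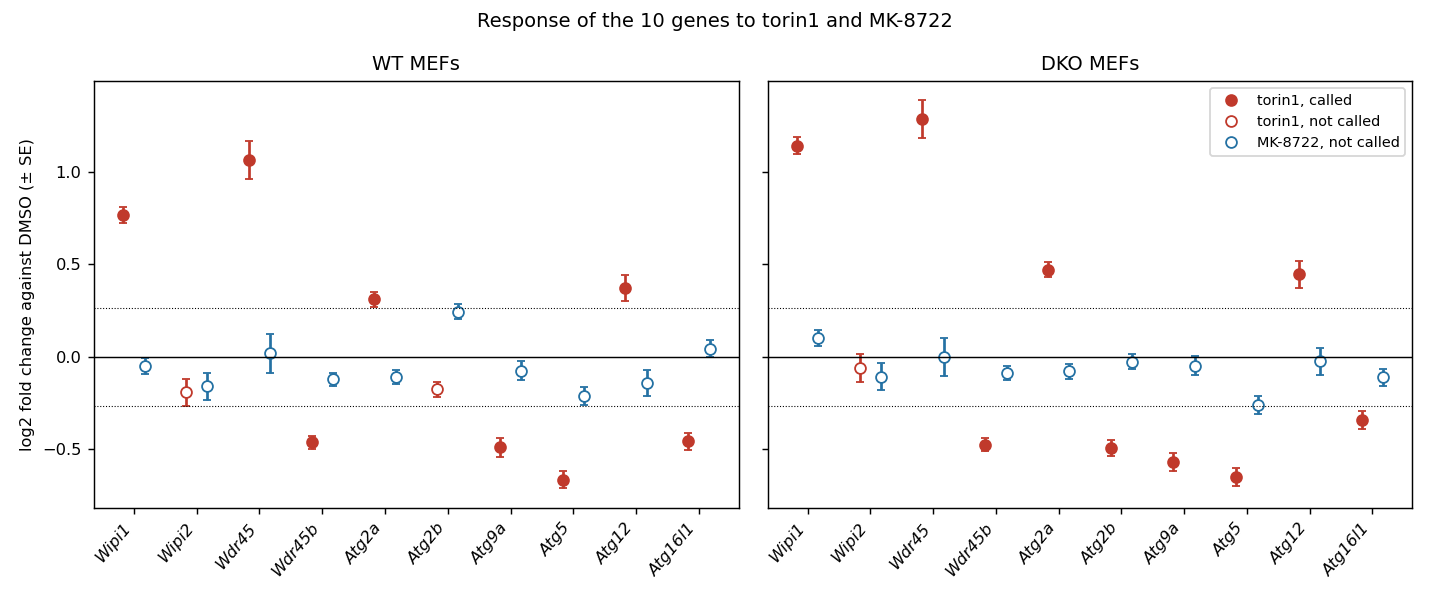
Log2 fold change against DMSO (y axis, ± SE) of each gene (x axis) in WT (left) and DKO MEFs (right), for torin1 (red) and MK-8722 (blue). Filled points were called and open points were not, and dotted lines mark the fold threshold of 1.2. The torin1 points run from -0.66 (*Atg5*) to 1.06 (*Wdr45*) in WT and from -0.65 to 1.28 in DKO MEFs, while every MK-8722 point is open.

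Set directly against each other, torin1 and MK-8722 differed in 9 members in WT (4 higher with torin1 and 5 lower, against 24.9% and 20% of all genes, 44.9% together). In DKO MEFs they differed in 8 (4 and 4, against 21.1% and 19.3%, 40.4% together). *Wipi2* was the member not called in either genotype. Its log2 difference was -0.03 in WT (95% interval -0.19 to 0.12) and 0.05 in DKO MEFs (-0.11 to 0.20). *Atg16l1* was called in WT (-0.50, FDR 6.85e-09) and lay under the fold threshold in DKO MEFs (-0.23, FDR 2.12e-04). The doses are those of 2 unrelated compounds and were not matched for effect.

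The comparison of responses asks whether the DKO line responded to a drug differently from the WT line. For torin1, 2 of the 10 members differed, 1 in each direction, where the response of 4.68% of all genes was higher and that of 6.33% lower in DKO MEFs (11% together). *Wipi1* rose more in DKO than in WT MEFs, by 0.37 ± 0.06 on the log2 scale (SE, FDR 1.85e-04), and *Atg2b* had the more negative response in DKO MEFs, by -0.32 ± 0.06 (FDR 5.06e-04). For MK-8722, 1 of 10 differed, against 1.42% of all genes with a higher and 4.08% with a lower response (5.49% together). That member was *Atg2b*, with a difference of -0.27 ± 0.06 (FDR 0.00398). Both differences of *Atg2b* use the same DMSO libraries. The MK-8722 value lay just past the fold threshold of 0.26. It fell under it, with an FDR still below 0.05, in 4 other analyses and when any of 10 libraries was left out (-0.26 to -0.25 without replicate 1, 2 or 4 of WT MK-8722, replicate 2 or 4 of WT DMSO, replicate 1 or 3 of WT torin1, replicate 3 or 4 of DKO DMSO, or replicate 2 of DKO MK-8722).

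For the other members the difference of response to torin1 did not pass. *Atg2a* was at 0.16 (95% interval 0.05 to 0.28, FDR 0.0514), *Wdr45* at 0.22 (-0.08 to 0.52), *Wipi2* at 0.13 (-0.09 to 0.35) and *Atg12* at 0.07 (-0.14 to 0.28). The intervals of *Wdr45b* at -0.01 (-0.12 to 0.09), *Atg5* at 0.01 (-0.13 to 0.16), *Atg9a* at -0.08 (-0.23 to 0.07) and *Atg16l1* at 0.12 (-0.02 to 0.26) lie within the fold threshold on both sides. The median difference of the members was 0.09 for torin1 and 0.03 for MK-8722, against -0.01 and 0.01 for all genes.

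**Figure D3:**
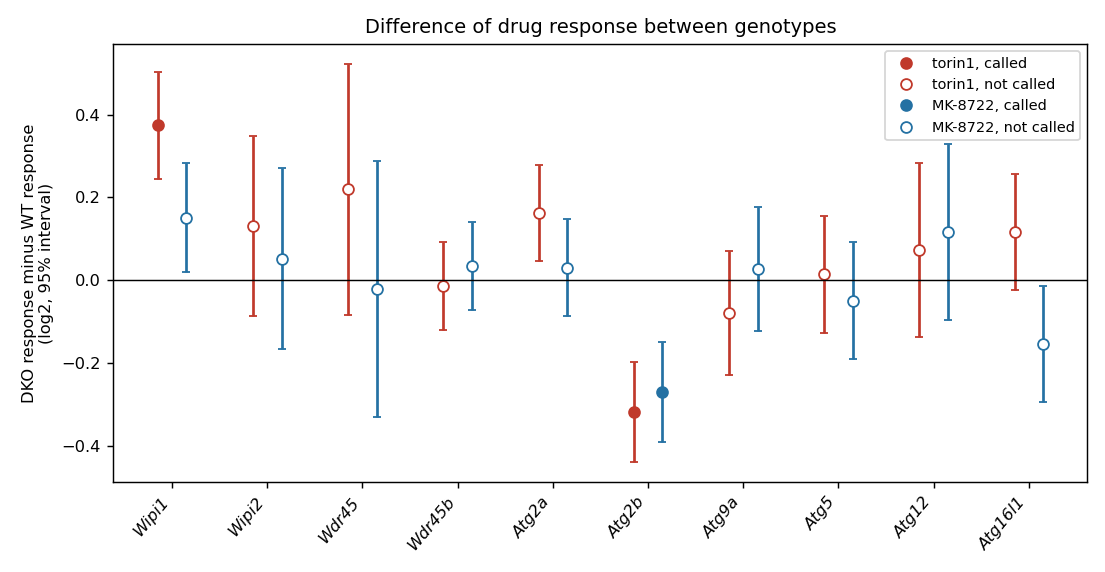
Response in DKO minus response in WT MEFs (y axis, log2, with 95% intervals) for each gene (x axis) and drug. Filled points were called. *Wipi1* lies above 0 for torin1 (0.37) and *Atg2b* below 0 for both drugs (-0.32 and -0.27).

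Without drug the 2 lines already differed in 6 of these 10 genes, a count near the share of all genes. Under DMSO, 4 members were higher and 2 lower in DKO MEFs, where 23.5% of all genes were higher and 24.6% lower (48.2% in all). *Wdr45* (0.67 ± 0.10, FDR 6.39e-06), *Atg16l1* (0.47 ± 0.05, FDR 8.05e-09), *Atg9a* (0.46 ± 0.05, FDR 3.80e-08) and *Atg5* (0.38 ± 0.05, FDR 2.88e-07) were higher. *Atg2a* (-0.54 ± 0.04, FDR 4.21e-11) and *Wdr45b* (-0.39 ± 0.04, FDR 2.34e-09) were lower. *Atg2a* was at 115, 114.6, 118.4 and 112.98 CPM in WT and at 80.8, 76.9, 80.3 and 78.4 CPM in DKO MEFs. *Atg9a* was at 65.8, 60.9, 65.9 and 63.5 CPM in WT and at 91.3, 83.2, 88.6 and 89.4 CPM in DKO MEFs. Neither pair of groups overlapped. *Wipi1* (-0.16, FDR 0.00395) and *Wipi2* (0.22, FDR 0.0131) lay under the fold threshold, and *Atg2b* (-0.06) and *Atg12* (-0.11) had groups that overlapped.

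The same 6 members differed in the same direction under torin1 and under MK-8722, joined by *Wipi2* (higher, 0.35 and 0.27) and *Atg2b* (lower, -0.37 and -0.33). That makes 5 higher and 3 lower with each drug. Under torin1 24% of all genes were higher and 27.8% lower (51.8% together), and under MK-8722 23.3% and 25.4% (48.7%). Of the *Wipi2* values, the one under MK-8722 (FDR 0.00284) depended on single libraries. Replicate 4 of the DKO MK-8722 group was at 178 CPM and its other 3 libraries at 134.6 to 139.5 CPM, and without it the difference was 0.16 and not called. It was also not called without WT MK-8722 replicate 1, 2 or 3 or WT torin1 replicate 1 or 3 (0.24 to 0.26). *Wipi1* under torin1 lay at 0.22 ± 0.04 (FDR 1.12e-04), under the fold threshold, and reached 0.27 without replicate 2 of DKO torin1. Scaling by library size alone lowered the median of all genes by 0.13 under torin1, and then 3 members were higher and 3 lower under torin1 and 2 higher and 3 lower under MK-8722.

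Compared per transcript length, in TPM, *Wdr45b* and *Wipi2* were the most abundant members in WT MEFs with DMSO, at 79.8 ± 3.50 and 62.9 ± 1.81 TPM (SD, n = 4). *Wdr45* (34.2), *Atg2a* (32.5), *Atg9a* (27.6), *Wipi1* (23.7), *Atg5* (22.002), *Atg2b* (16.8), *Atg16l1* (16.6) and *Atg12* (9.26) followed. The libraries of *Wdr45* overlapped those of *Atg2a* and those of *Atg9a*, and *Atg2b* overlapped *Atg16l1*, so the order within these pairs is not fixed. In DKO MEFs with DMSO the order was led by *Wipi2* (73.9 ± 7.61 TPM), ahead of *Wdr45b* (58.8) and *Wdr45* (54.1), which overlapped. With torin1 *Wdr45* came first in both genotypes, at 79.7 ± 9.54 TPM in WT and 143 ± 7.76 TPM in DKO MEFs, without overlap with the next gene. Its TPM was summed over 36 transcripts, of which only 3 held 10% or more of it in any group mean. In CPM with torin1, *Wdr45* (49.5 in WT, 91.7 in DKO MEFs) was below *Wipi2* (120 and 152) and, in WT, below *Wdr45b* (57.9). CPM is not scaled by transcript length, whereas the TPM of *Wdr45* depends on how salmon divided its reads among transcripts of unlike length. Which of these sets its rank in TPM was not tested. *Atg12* was last in 4 of the 6 groups, and with torin1 it overlapped *Atg16l1* and *Atg5* in WT and *Atg2b* in DKO MEFs.

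The composition of the WIPI family therefore shifted. In WT MEFs the TPM of *Wdr45* was 0.427 ± 0.0534 of that of *Wdr45b* with DMSO and 1.29 ± 0.236 with torin1. In DKO MEFs the same ratio was 0.924 ± 0.0809 with DMSO and 3.19 ± 0.254 with torin1. *Wipi1* over *Wipi2* was 0.378 ± 0.0131 and 0.747 ± 0.0210 in WT, and 0.289 ± 0.0288 and 0.663 ± 0.0280 in DKO MEFs. In each of these comparisons every torin1 library was above every DMSO library. With MK-8722 the ratio of *Wdr45* over *Wdr45b* was 0.480 ± 0.130 in WT and 0.984 ± 0.0913 in DKO MEFs, and both overlapped DMSO. *Wipi1* over *Wipi2* with MK-8722 was 0.438 ± 0.0379 in WT, where every library lay above every DMSO library, and 0.363 ± 0.0587 in DKO MEFs, where the groups overlapped. The summed TPM of the 4 genes was 201 ± 9.90 with DMSO and 242 ± 10.7 with torin1 in WT, and 208 ± 13.3 and 309 ± 10.1 in DKO MEFs. *Wdr45* made up 17.03% of the sum in WT with DMSO and 46.4% in DKO MEFs with torin1. The ratios, sums and shares that include *Wdr45* depend on salmon's division of its reads in the same way.

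Outside the WIPI family, *Atg2a* over *Atg2b* in WT MEFs was 1.94 ± 0.124 (DMSO), 2.80 ± 0.137 (torin1) and 1.505 ± 0.0903 (MK-8722), so the MK-8722 libraries lay below and the torin1 libraries above all 4 DMSO libraries. In DKO MEFs the ratio was 1.39 ± 0.0903, 2.71 ± 0.163 and 1.30 ± 0.107 in the same order. So the 2 lines differed with DMSO and had overlapping ratios with torin1. *Atg12* over *Atg5* was 0.421 ± 0.0246 with DMSO and 0.839 ± 0.0884 with torin1 in WT, and 0.298 ± 0.00654 and 0.656 ± 0.0353 in DKO MEFs. These ratios describe mRNA and say nothing of how much conjugate is formed.

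**Figure D4:**
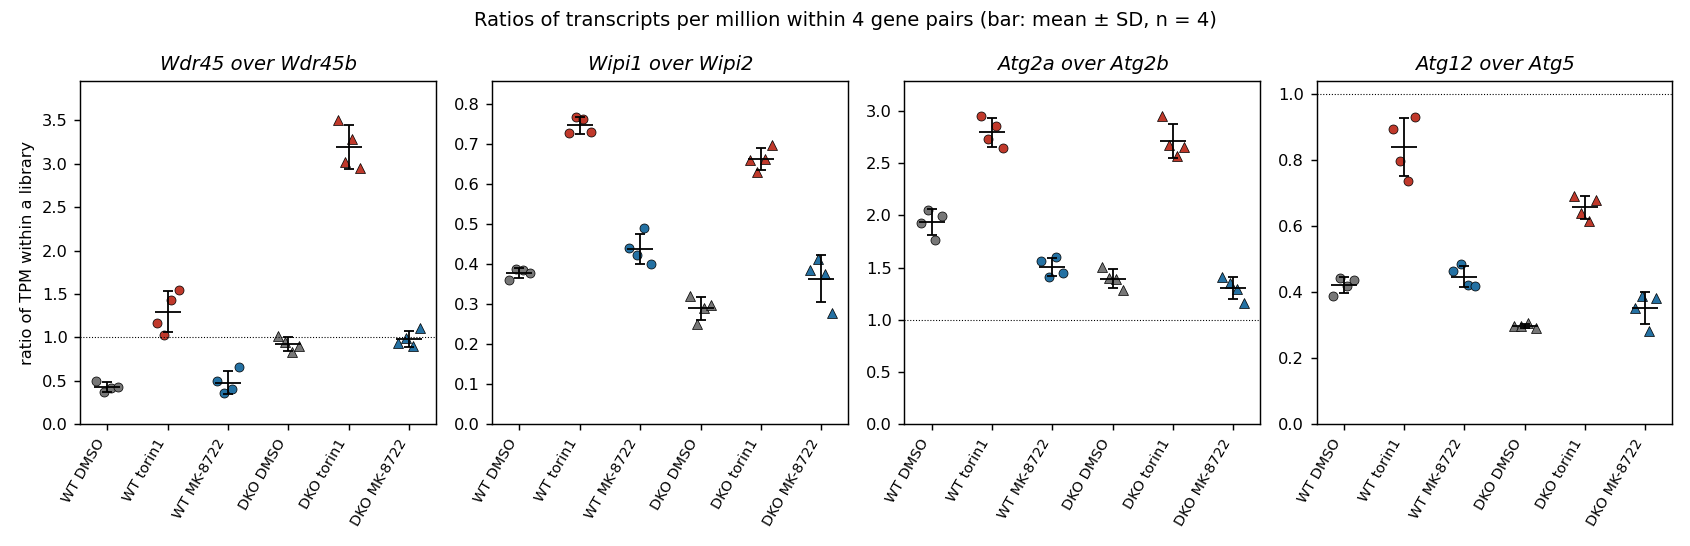
Ratio of TPM between 2 genes within each library (y axis, from 0) in the 6 groups (x axis). Points are libraries, bars and whiskers are the mean ± SD of 4, and the dotted line marks equal TPM in the panels that reach it. The torin1 points (red) lie above the DMSO points (grey) for all 4 ratios in both genotypes, and *Wdr45* exceeds *Wdr45b* in every torin1 library (lowest ratio 1.03).

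Member transcripts were tested in the same way over 57945 transcripts. Of 59 tested transcripts of the 10 genes, 11 rose and 8 fell with torin1 in WT MEFs, where 10.7% of all transcripts rose and 12.1% fell (22.8% together), and none moved against the sign of its gene. All 3 tested transcripts of *Wipi1* rose, as did 5 of 20 of *Wdr45*. With 1 library left out, 14 to 21 member transcripts were called. *Wipi2*, not called as a gene, had 1 transcript that fell, Wipi2-202 (-0.35 ± 0.10, FDR 0.0104), while Wipi2-201 was at -0.17 ± 0.08 (FDR 0.143). The falls of *Atg9a* were -0.90 ± 0.09 (FDR 1.13e-07) for Atg9a-201, -0.55 ± 0.10 (FDR 1.50e-04) for Atg9a-205 and -0.46 ± 0.15 (FDR 0.0308) for Atg9a-208. The last was not called without WT torin1 replicate 1 or 4 or WT DMSO replicate 1 or 3 (-0.45 to -0.38). Differences between transcripts of a gene were not tested, and salmon's division of reads adds error to each.

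With MK-8722 in WT MEFs, 1 member transcript was called, and it belonged to *Wipi1*. Of all transcripts, 3.7% rose and 1.72% fell (5.42% together). The count of 1 was 2 without WT DMSO replicate 1 or 3, DKO DMSO replicate 1 or WT torin1 replicate 4, and 3 without DKO torin1 replicate 1. Atg9a-201 was at -0.30 ± 0.09 (FDR 0.0529). It was called without WT DMSO replicate 1, DKO torin1 replicate 1 or WT torin1 replicate 4, and with a stricter filter or a passage block. Wipi1-201 fell by 0.42 ± 0.08 on the log2 scale (FDR 0.00123), while Wipi1-202 was at 0.26 ± 0.08 (FDR 0.0534) and the gene as a whole at -0.05 ± 0.04. Wipi1-201 made up 37.6 ± 2.31% of the gene's TPM with DMSO and 27.6 ± 2.33% with MK-8722, and Wipi1-202 made up 58.5 ± 1.74% and 68.1 ± 1.96%. Neither pair of ranges overlapped. In DKO MEFs the share of Wipi1-201 was 33.6 ± 1.12% with DMSO and 27.2 ± 1.69% with MK-8722, also without overlap. With torin1 its share was 38.8 ± 2.88% in WT and 37.3 ± 0.877% in DKO MEFs. The larger torin1 response of *Wipi1* in DKO MEFs was called for Wipi1-201 (0.51 ± 0.11, FDR 0.0119), the 1 member transcript past the thresholds (2 without WT torin1 replicate 3), where the response of 1.09% of all transcripts was higher and that of 0.78% lower (1.87% together), and was 0.35 ± 0.11 (FDR 0.134) for Wipi1-202, which was called (0.42) without that library. With a replicate block in edgeR, Wipi1-202 was called as well (0.35, FDR 0.0493). For the response to MK-8722, edgeR called 0 of 59 member transcripts, with 3 of them at an unadjusted p under 0.05. The share of all transcripts at that unadjusted cut-off was not computed. Of all transcripts, 0.124% were called higher and 0.733% lower (0.858% together), and no other tool was run on transcripts.

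**Figure D5:**
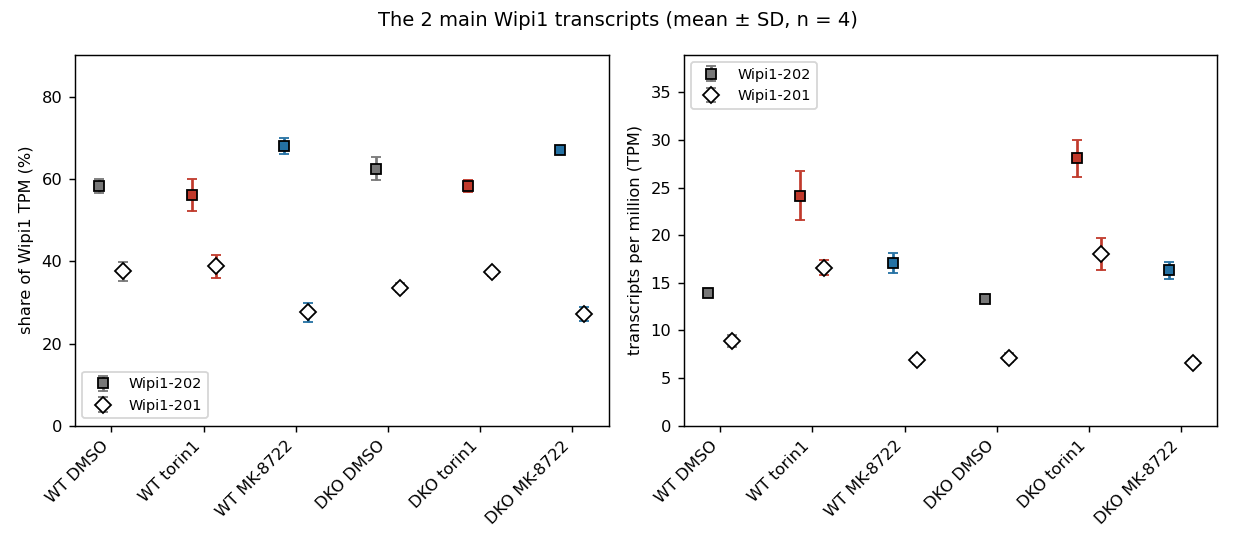
Share of *Wipi1* TPM (left, %) and TPM (right) of the transcripts Wipi1-202 (squares) and Wipi1-201 (open diamonds) in the 6 groups, mean ± SD of 4 libraries. With MK-8722 the share of Wipi1-201 is 27.6% in WT and 27.2% in DKO MEFs, below the 37.6% and 33.6% with DMSO, while the TPM of both transcripts is highest with torin1.

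Other genes of autophagosome formation were followed as a list of 37, covering initiation kinases, the class III PI3K, ATG8 proteins, conjugation enzymes and ATG9A export. All 37 were tested. With torin1, 19 rose and 6 fell in WT (26.6% and 20.5% of all genes), and 11 rose and 9 fell in DKO MEFs (23% and 20.2% of all genes). With MK-8722, 8 rose and 0 fell in WT (10.3% and 5.87% of all genes). In DKO MEFs 2 rose and 0 fell with MK-8722, where 5.47% and 3.21% of all genes did (1 rose without DKO MK-8722 replicate 1 or 2 or DKO DMSO replicate 3 or 4, and 4 without DKO DMSO replicate 1). The list's median log2 change with torin1 was 0.29 in WT and 0.00 in DKO MEFs, whereas the median of the 10 members was -0.18 and -0.20. In the difference of response, 1 of the 37 was higher and 9 were lower in DKO MEFs for torin1, against 4.68% and 6.33% of all genes. For MK-8722, 1 was higher and 6 were lower, against 1.42% and 4.08%.

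Of the list, 6 genes had a called difference with the same sign for both drugs, and all 6 were lower in DKO MEFs. They were the ATG8 genes *Gabarap* (-0.78 for torin1, -0.55 for MK-8722), *Map1lc3b* (-0.65, -0.66) and *Gabarapl1* (-0.36, -0.29), the PI3K subunit gene *Uvrag* (-0.70, -0.47), *Atg3* (-0.63, -0.39), which encodes the enzyme that hands LC3 on to lipid, and *Tecpr1* (-0.42, -0.74), whose product binds ATG12–ATG5 in place of ATG16L1. *Atg2b* was the 1 member with this pattern. For each gene, both differences use the same DMSO libraries, so their signs are not independent. For all genes, the share with this pattern was not computed, nor the share called for 1 drug alone. The value of *Gabarapl1* for MK-8722 was -0.26 and not called without replicate 4 of WT MK-8722. In WT MEFs *Map1lc3b* rose with torin1 by 0.91 ± 0.04 (FDR 3.33e-14). In DKO MEFs it went from 122 to 146 CPM, a log2 change of 0.262 (FDR 7.82e-06), just under the fold threshold of 0.263. That value was called by FDR alone, with DESeq2 size factors, library size alone, a stricter filter or the DESeq2 Wald test. It was also called without the 3 WT libraries of passage 11 and after most omissions of 1 library. Over all settings it lay between 0.24 and 0.30. Another 5 genes of the list differed for 1 drug and 26 for neither. *Atg16l2*, the paralog of *Atg16l1*, rose with torin1 in WT by 0.48 ± 0.06 (FDR 4.34e-07), where *Atg16l1* fell. In DKO MEFs *Atg16l2* was at 0.08 ± 0.06 (FDR 0.278), with a called difference of response to torin1 (-0.40 ± 0.09, FDR 0.00224), while *Atg16l1* fell there too. With an offset for gene length that difference was -0.49 and not called (FDR 0.140).

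The genes most like *Wipi1* and *Atg2b* were sought by Pearson's r of log2 CPM over the 24 libraries among 10666 genes. For *Wipi1* they were *Dhx40* (0.987), *Pole* (0.984), *Ap4m1* (0.984), *Paics* (0.981) and *Inpp5k* (0.980). For *Atg2b* they were *Atp6v0c* (0.977), *Atp6v0c-ps2* (0.977), *Lamtor3* (0.973), *Cuta* (0.961) and *Sec11c* (0.958). *Atp6v0c* encodes a subunit of the vacuolar proton pump, *Lamtor3* a subunit of the Ragulator complex on lysosomes and *Ap4m1* a subunit of the AP-4 coat that exports ATG9A from the trans-Golgi network (it is in the list above). *Atp6v0c-ps2* is a pseudogene that can share reads with *Atp6v0c*. The libraries share their treatments and genotypes, so such values describe a common pattern over the 6 groups.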

How the data were processed

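The authors deposited salmon estimated counts per gene and, per library, estimated counts and TPM per transcript. Per the labels and methods, reads of 52 bases (paired ends) from polyadenylated RNA were processed with nf-core/rnaseq 3.11.2, STAR and Salmon on GRCm38 (Ensembl release 102), considering molecular identifiers. The study removed a batch effect, but the labels give 1 batch for this series, so no batch term was used. Estimated counts were rounded. Genes were kept by edgeR's filterByExpr (minimum count 10) and scaled by TMM, and 1 mean per group was fitted to all 24 libraries (edgeR 4.0.16, limma 3.58.1, R 4.3.3, 18 residual degrees of freedom). Standard errors are the log2 fold change divided by the square root of F. Gene TPM was summed over transcripts. The alternatives, among them DESeq2 1.42.0, were run on the same counts. The gene test of torin1 against DMSO in WT was also run on simulated counts, with far fewer changed genes than in these data. The differences of response and the transcript tests were not simulated. Same-numbered replicates did not deviate together in every pair (correlations -0.41 to 0.66), so the numbers do not pair the libraries, whereas same-passage libraries correlated at 0.02 to 0.66. Members and lists were chosen with earlier results of these data known. Positions come from GENCODE M21. All 10 members were named, and of the other autophagy genes those called with the same sign in both differences of response. *Atg16l2* was chosen after its values were seen. Similar genes were the 5 with the highest r for the members that differed most in response to each drug. Named transcripts held at least 10% of their gene's TPM in some group.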

Additional observations from a re-analysis of the deposited data

Results flagged for a closer look

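Among the 60 sets of 4 libraries (10 genes in 6 groups), 5 had a library far from the other 3 by Dixon's test, and chance alone flags about 1 group in 20. *Wipi2* was at 178 CPM in replicate 4 of DKO MK-8722 (the others 134.6 to 139.5 CPM). That library came from passage 8, and the passage 8 library was also the highest of the DKO DMSO group (180 CPM) and of the DKO torin1 group (159 CPM). *Atg5* was at 28.1 CPM in replicate 3 of DKO torin1 (others 24.3 to 24.6 CPM). *Atg12* was at 28.8 CPM in replicate 2 of WT MK-8722 (others 24.2 to 24.6 CPM), a library of passage 11, which also gave the highest *Atg12* of the WT DMSO (31.4 CPM) and WT torin1 groups (40.8 CPM). *Atg12* was at 24.5 CPM in replicate 4 of DKO DMSO (others 26.4 to 26.5 CPM), and *Atg16l1* at 29.5 CPM in replicate 2 of WT DMSO (others 31.3 to 31.4 CPM).

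The response to a drug differed between genotypes by a test of the difference itself for *Wipi1* with torin1 (0.37), for *Atg2b* with torin1 (-0.32) and for *Atg2b* with MK-8722 (-0.27), all on the log2 scale.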

How the results depend on the processing

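Over 13 other settings and 24 omissions of 1 library, 52 of the 59 called values of a member in a comparison kept their call and all 59 kept their sign. With FDR alone, MK-8722 called 4 members in WT and 1 in DKO MEFs, and without the filter on low counts 1 in DKO MEFs. The share of all genes called by FDR alone was not computed. Scaling by library size alone gave 5 members that differed between genotypes under MK-8722, and moved the share of higher values among all genes called from 46.3% to 31.9% for the genotypes under torin1, from 42.5% to 26.5% for the response to torin1 and from 55.4% to 66.3% for torin1 against MK-8722 in WT. The response to MK-8722 differed for 0 members with DESeq2 size factors, an offset for gene length, the DESeq2 Wald test or without the 3 WT libraries of passage 11. Member transcripts called with MK-8722 in WT numbered 3 with a stricter filter and 2 with a passage block or without the 3 DKO libraries of passage 8, and those of the response to torin1 numbered 2 with a stricter filter and 3 with the replicate block. With the replicate block or the passage block, no count of called member genes changed. Leaving out 1 library gave 0 to 1 members for MK-8722 in WT, in DKO MEFs and in the response to MK-8722. Between genotypes it gave 8 to 9 members under torin1 and 7 to 8 under MK-8722. Member transcripts numbered 14 to 21 for torin1 in WT, 1 to 3 for MK-8722 in WT and 1 to 2 in the response to torin1. The causes were not tested. Depth limits transcripts more than genes, since reads of a gene are divided among them.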
